A study of Homo sapiens with 18 samples.

Results

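The aryl hydrocarbon receptor genes described here are AHR, its partner ARNT, the feedback repressors AHRR and TIPARP, and the enzyme genes CYP1A1, CYP1B1 and ALDH3A1. They were chosen by a measured value, since CYP1A1 was higher from a low level under palbociclib in RT112 cells, so the RT112 treatment values of all of them are given as a description. Of the 7 genes, 6 have an array row annotated with their symbol alone, out of 22465 genes with such a row. The only row that carries the AHRR symbol also carries that of PDCD6, and AHRR is therefore not analysed here. The rule takes the highest-mean row of each gene and the arrays of 2 of the 3 lines, RT112 and J82.

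The groups were RT112 cells treated with palbociclib at its IC50, RT112 cells given PBS as control, J82 cells treated with palbociclib at its IC50 and J82 cells given PBS, with 3 arrays in each. RT112 and J82 are established lines grown from human bladder cancers, and palbociclib inhibits the cell cycle kinases CDK4 and CDK6. Each array held total RNA of one sample on an Affymetrix whole-transcript design, and per the labels the samples came from separate dishes of 1 line, so the p-values measure the spread between dishes. The concentration and the length of treatment are not given in the sources used here. Values are log2 intensities as deposited, which reach 19.93, above what an array scanner's brightness scale normally gives, so a log2 difference is not read as a fold change of RNA.

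The receptor is a transcription factor of the bHLH-PAS family that waits in the cytosol in a complex with HSP90 chaperones. Planar aromatic ligands, such as dioxins, polycyclic hydrocarbons of smoke and some products of tryptophan, send it to the nucleus, where it pairs with ARNT and binds dioxin response elements. CYP1A1 and CYP1B1, which oxidise polycyclic hydrocarbons and can turn them into DNA-reactive products, are its usual readouts, and AHRR and TIPARP are induced by it and restrain it. The bladder is exposed to such compounds through urine, and smoke is a known cause of bladder cancer.

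Array medians over all rows lay between 4.80 and 5.21. RT112 palbociclib replicate 1 stood apart, with the highest median, the lowest array weight (0.113) and, with replicate 3, the lowest correlation within a group (0.973), and results that rest on it are given without it too. On the arrays, 23 rows named as background by GC class spanned 2.52 to 8.23 over all arrays together. Levels in that pooled span are not called detected or not detected here. The highest such row lay between 6.12 and 8.23 on single arrays, so a level inside the span can exceed those of its own array. The 5637 line was left out. Its row means correlated with those of J82 at r = 0.027 across transcript clusters, against 0.94 for RT112 with J82. Across the other rows, which are not transcript clusters, r between 5637 and J82 was 0.975. Rows are not independent replicates, and the cause was not tested. Of 5 epithelial markers, 3 were higher in RT112 controls than in J82 controls (EPCAM, CDH1 and KRT19, log2 differences of 3.26, 7.82 and 4.91) and 2 were lower (KRT8 and KRT18, -2.32 and -1.85). Of 8 urothelial markers 4 were higher (UPK1B, GATA3, PPARG and KRT5) and 0 lower. Of 5 mesenchymal markers 3 were lower (CDH2, VIM and ZEB1, -6.68, -1.35 and -0.85) and 1 higher (FN1, 0.56). The FN1 call was lost without J82 control 1 or 2, or RT112 control 2 or 3 (0.48 to 0.56). EPCAM and CDH1 averaged 5.57 and 5.68 in J82 controls, inside the background span. Under palbociclib in RT112, KRT19 and KRT5 were higher (1.72 and 1.20, and 2.24 and 1.55 without replicate 1), while KRT18, UPK1B, CDH2 and FN1 were lower (-1.25, -1.27, -0.57 and -0.89, and -1.32, -1.14, -0.59 and -0.85 without it). The RT112 call of KRT5 was lost without palbociclib 2 or 3 (0.99 and 1.07). The RT112 call of CDH2 was lost without J82 control 2 or 3, any RT112 control, or palbociclib 2 or 3 (-0.65 to -0.46). In J82 KRT8, KRT18 and CDH2 fell (-0.95, -2.56 and -0.71). The part of these markers in the results was not tested. UPK1A, UPK3A and KRT20 had group means between 3.97 and 5.10 in both lines, inside the background span. Of 4 leukocyte markers and 4 endothelial markers, 0 passed the test in either line under palbociclib. Between the controls, 2 of the 4 leukocyte markers were lower in RT112, and 0 of the 4 endothelial markers passed. The marker counts between the controls stand beside 12.8% of all genes higher and 14.7% lower in RT112 controls.

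The RefSeq promoter windows (250 bases before to 50 after a start, build GRCh38.p14) are shown for the inducible enzyme gene CYP1A1, the receptor gene AHR and the repressor gene TIPARP, because these 3 hold the core of the dioxin response element. Capitals mark the core, GCGTG, or CACGC where it lies on the other strand; both were searched, and no other motif was. The CYP1A1 window is chr15:74725479-74725778 on the minus strand, that of AHR is chr7:17298402-17298701 on the plus strand, and that of TIPARP is chr3:156674340-156674639 on the plus strand.

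CYP1A1: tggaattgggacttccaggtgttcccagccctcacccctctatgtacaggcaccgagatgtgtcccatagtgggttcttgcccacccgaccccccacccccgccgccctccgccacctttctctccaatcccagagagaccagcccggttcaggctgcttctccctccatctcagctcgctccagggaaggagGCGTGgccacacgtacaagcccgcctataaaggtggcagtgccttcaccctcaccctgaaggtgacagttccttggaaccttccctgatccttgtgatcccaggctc
AHR: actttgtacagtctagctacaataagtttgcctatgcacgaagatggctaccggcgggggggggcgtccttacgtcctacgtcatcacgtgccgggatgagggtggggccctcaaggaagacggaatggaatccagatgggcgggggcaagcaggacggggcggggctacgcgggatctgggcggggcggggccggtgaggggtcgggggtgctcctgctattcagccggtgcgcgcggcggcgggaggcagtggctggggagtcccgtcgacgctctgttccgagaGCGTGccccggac
TIPARP: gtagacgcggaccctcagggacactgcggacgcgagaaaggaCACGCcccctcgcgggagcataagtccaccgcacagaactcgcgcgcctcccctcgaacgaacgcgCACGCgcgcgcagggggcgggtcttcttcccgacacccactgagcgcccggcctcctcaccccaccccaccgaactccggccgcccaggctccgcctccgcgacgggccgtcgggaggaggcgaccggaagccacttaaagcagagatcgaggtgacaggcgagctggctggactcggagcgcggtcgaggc

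The core begins 57 bases before the start of CYP1A1, at base 38 after that of AHR, and 208 and 142 bases before the TIPARP start of the window shown, while its other 2 windows hold none. Of the 7 genes, 5 have a window in the table and 4 of these, AHRR among them, hold the core, while the ARNT window does not. Among all 27305 genes with a window 40.6% hold it in at least 1, and among all 35116 windows 36.5% do. A match is a description of these letters and not a measured binding site.

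The receptor gene AHR was higher under palbociclib in both lines, with a call that held without each single array in J82 only. In J82, where the rule used no value, AHR read 11.31, 11.25 and 11.34 on the palbociclib arrays, against 9.96, 10.38 and 10.60 on the controls. The palbociclib arrays lay close together and all above the controls, which were spread more widely. AHR rose by 0.99 ± 0.18 on the log2 scale (SE, 3 arrays in each group, limma adjusted p = 0.00383, 95% interval 0.60 to 1.37), and 1.46% of all genes had a higher difference in J82. The call held without each of the 12 arrays in turn, with differences between 0.81 and 1.13 and adjusted p up to 0.0176. In bulk RNA, more cells that express a gene and more RNA of it per cell cannot be told apart. AHR was the only one of the 6 genes that passed in J82 (1 higher and 0 lower), where 5.4% of all genes passed as higher and 2.78% as lower. At 0.99 it falls short of a required log2 difference of at least 1.

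In RT112, AHR read 12.82, 12.61 and 13.01 under palbociclib, against 12.16, 12.24 and 12.11 in controls, with no overlap. The log2 difference was 0.64 ± 0.18, and 0.64 as well without palbociclib replicate 1. The RT112 call of AHR was lost without any one RT112 array (0.54 to 0.75) or without J82 control 2 (0.64). The RT112 response minus the J82 response was -0.34 ± 0.25 for AHR, given without a test because it contains the RT112 contrast. The order of the group means for AHR was RT112 under palbociclib (12.8 ± 0.20, SD, n = 3), RT112 control (12.2 ± 0.063), J82 under palbociclib (11.3 ± 0.046) and J82 control (10.3 ± 0.32), and no neighbouring groups overlapped.

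ARNT, the partner that the receptor needs to bind DNA and that hypoxia-inducible factors use too, read 8.31, 8.48 and 8.67 in RT112 under palbociclib, against 8.14, 7.83 and 7.84 in RT112 controls. Its difference in RT112 was 0.55 ± 0.15, and 0.64 without palbociclib replicate 1. In J82 the ARNT values were 8.59, 8.56 and 8.94 under palbociclib, against 8.36, 8.35 and 8.43 in controls. All 3 treated J82 arrays lay above the controls, with replicate 3 highest, yet the difference of 0.32 ± 0.15 did not pass (adjusted p = 0.27, interval -0.01 to 0.65). In J82 16.1% of all genes had all 3 palbociclib arrays above the 3 controls, as AHR and ARNT did among the 6 genes. The hypoxia factor EPAS1, another ARNT partner, rose in J82 by 2.0 ± 0.23 (adjusted p = 0.000108) and stood at 0.23 ± 0.23 in RT112 (0.29 without palbociclib replicate 1). HIF1A stood at 0.37 ± 0.20 in J82 and 0.38 ± 0.20 in RT112 (0.50 without it).

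**Figure D1:**
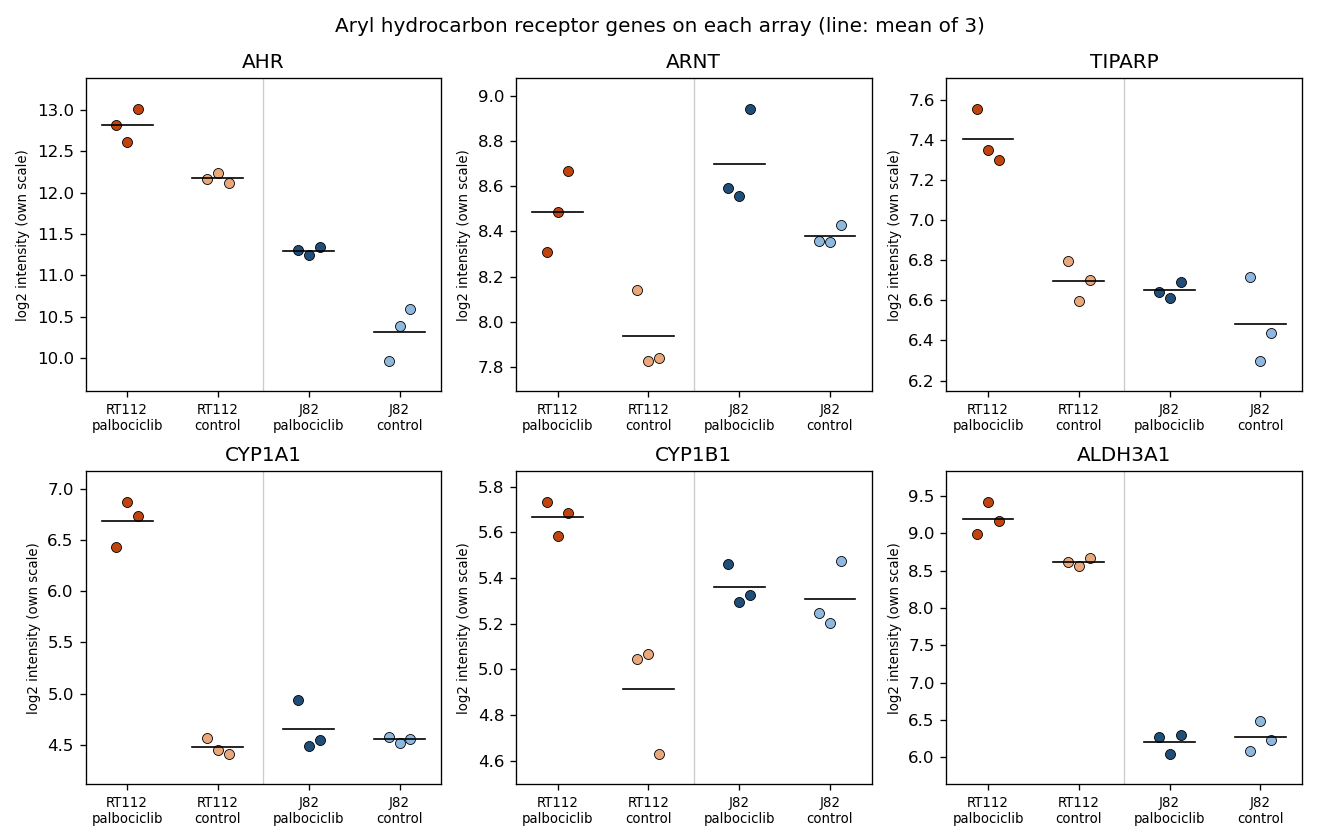
Log2 intensity of the 6 genes on each array (points) with the mean of 3 (line), in RT112 palbociclib, RT112 control, J82 palbociclib and J82 control from left to right, each gene on its own scale. CYP1A1 stands apart in RT112 under palbociclib (6.44 to 6.87, against 4.41 to 4.57 in RT112 controls), while AHR is higher under palbociclib in both lines.

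TIPARP, a mono-ADP-ribosyltransferase that modifies the receptor and lowers its activity, read 7.56, 7.35 and 7.30 in RT112 under palbociclib, against 6.80, 6.60 and 6.70 in RT112 controls. The groups did not overlap, and the difference was 0.70 ± 0.13, and 0.63 without palbociclib replicate 1. In J82 TIPARP read 6.64, 6.61 and 6.69 under palbociclib, against 6.72, 6.30 and 6.44 in controls. Control replicate 1 was the highest of the 6 J82 arrays, the groups overlapped, and the difference was 0.17 ± 0.13 (adjusted p = 0.609, interval -0.11 to 0.44). For TIPARP the 3 groups other than RT112 under palbociclib overlapped, with means of 6.70 in RT112 controls, 6.65 in J82 under palbociclib and 6.48 in J82 controls.

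CYP1A1 gave the largest difference of the set in RT112, the value for which the genes were picked. It read 6.44, 6.87 and 6.74 under palbociclib, against 4.57, 4.45 and 4.41 in RT112 controls. The lowest treated array, replicate 1, is the one that stood apart, and it was still well above every control. The difference was 2.21 ± 0.13, and 2.33 without that array; it ranked 10 from the highest of all genes in RT112. All CYP1A1 levels lie inside the background span. So do all CYP1B1 and TIPARP levels, the ALDH3A1 levels of both J82 groups and the ARNT levels of RT112 controls. The ARNT levels of RT112 controls still lay above the highest background row of their own arrays (6.26, 7.15 and 6.65). So did the TIPARP levels of RT112 under palbociclib (6.94, 7.26 and 7.08). No other group named here had all its levels above that row.

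In J82 CYP1A1 read 4.94, 4.49 and 4.55 under palbociclib, against 4.58, 4.52 and 4.56 in controls. Palbociclib replicate 1 was the highest and the other 2 treated arrays lay within or below the control range. The difference of 0.10 ± 0.13 did not pass (adjusted p = 0.834), its interval ran from -0.18 to 0.39, and it was -0.03 without that array. The RT112 response minus the J82 response was 2.10 ± 0.19. Untreated CYP1A1 means were 4.48 ± 0.084 in RT112 controls and 4.55 ± 0.030 in J82 controls (SD, n = 3 each).

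CYP1B1, the other enzyme of the family that acts on polycyclic hydrocarbons and oestrogens, read 5.73, 5.58 and 5.68 in RT112 under palbociclib, against 5.05, 5.06 and 4.63 in RT112 controls. The groups did not overlap and control replicate 3 was the lowest array. The difference was 0.75 ± 0.13 in RT112, and 0.72 without palbociclib replicate 1. In J82 CYP1B1 read 5.46, 5.29 and 5.33 under palbociclib, against 5.25, 5.20 and 5.47 in controls, which overlapped (0.05 ± 0.13, adjusted p = 0.945, interval -0.22 to 0.32). CYP1B1 has a 2nd row with a lower mean, and there the difference was 0.31 ± 0.11 in RT112 and 0.16 ± 0.11 in J82, so the rows differ in size by more than 1.5 times in RT112.

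ALDH3A1, an aldehyde dehydrogenase induced by the receptor in liver cells, read 9.00, 9.42 and 9.17 in RT112 under palbociclib, against 8.61, 8.56 and 8.68 in RT112 controls. All treated arrays lay above the controls and the difference was 0.58 ± 0.15, and 0.68 without palbociclib replicate 1. In J82 ALDH3A1 read 6.27, 6.04 and 6.30 under palbociclib, against 6.08, 6.49 and 6.24 in controls. These overlapped, and the difference was -0.07 ± 0.15 (adjusted p = 0.937, interval -0.38 to 0.25).

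Across the set in RT112, all 6 genes had their treated arrays above their controls (14.5% of all genes did), and 6 passed as higher and 0 as lower, where 4.95% and 3.53% of all genes passed. The set was picked on this contrast, so nothing is read from these counts. Their median difference was 0.67, against 0.035 over all genes. The number that passed was 5 without palbociclib replicate 1, when AHR did not pass, 5 without J82 control replicate 3, when ARNT did not pass, 4 without control replicate 1 or J82 control replicate 2, and 3 without control replicate 2, control replicate 3, palbociclib replicate 2 or palbociclib replicate 3, when CYP1A1, TIPARP and CYP1B1 passed. In J82 the median of the 6 was 0.14, against 0.040 over all genes. The responses of the lines differed by 0.54 ± 0.18 for TIPARP, 0.70 ± 0.18 for CYP1B1, 0.65 ± 0.21 for ALDH3A1 and 0.23 ± 0.21 for ARNT, as RT112 minus J82, given without a test because they contain the RT112 contrast. Without RT112 palbociclib replicate 1 they were 0.46 for TIPARP, 0.67 for CYP1B1, 0.75 for ALDH3A1, 0.32 for ARNT, 2.22 for CYP1A1 and -0.34 for AHR.

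**Figure D2:**
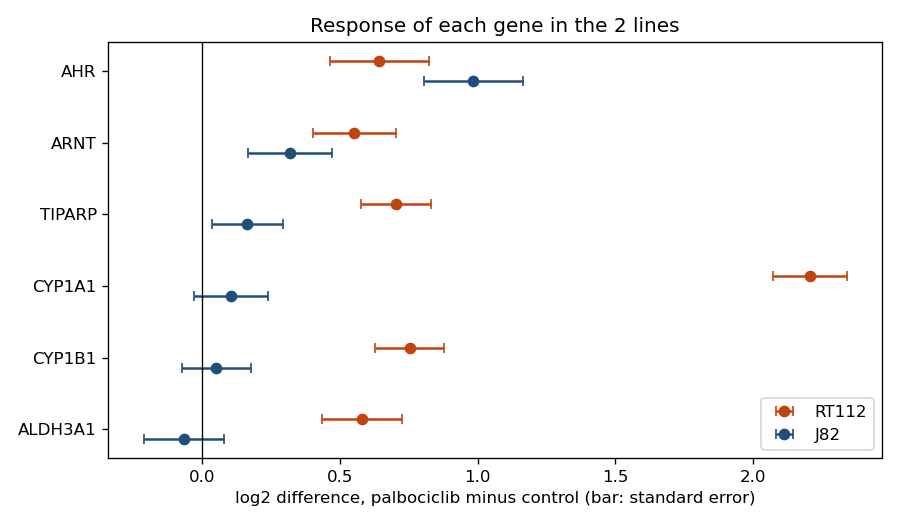
Log2 difference, palbociclib minus control, with its standard error for each gene in RT112 (upper point) and J82 (lower point). All 6 RT112 values lie between 0.55 and 2.21, and in J82 AHR at 0.99 is the highest and ALDH3A1 at -0.07 the lowest.

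Without drug the lines differed most in AHR and ALDH3A1; this comparison uses the same control arrays as the treatment comparisons. AHR was higher in RT112 controls than in J82 controls by 1.86 ± 0.18 (adjusted p = 1.86e-06), with all RT112 arrays above all J82 arrays. ALDH3A1 was higher in RT112 controls by 2.35 ± 0.15 (adjusted p = 2.04e-08), at 8.61 ± 0.059 against 6.27 ± 0.20 in J82 controls (SD, n = 3 each). ARNT was lower in RT112 controls by a log2 difference of -0.45 ± 0.15 (adjusted p = 0.0418) and CYP1B1 by -0.39 ± 0.13 (adjusted p = 0.0307). These 4 of the 6 genes passed, 2 higher and 2 lower, where 12.8% of all genes were higher and 14.7% lower in RT112 controls. TIPARP did not pass (0.21 ± 0.13, adjusted p = 0.271), and CYP1A1, whose low RT112 level is part of the choice, stood at -0.08 ± 0.13. The ALDH3A1 level of J82 controls, the ARNT level of RT112 controls and the CYP1B1 levels of both lie inside the background span. Of these, ARNT in RT112 controls lay above every background row of its own arrays. The ARNT call was lost without any one of J82 control replicates 1, 2 and 3 (-0.46, -0.46 and -0.42), RT112 control replicates 2 and 3 (-0.39 and -0.40) or RT112 palbociclib replicate 2 (-0.45), and that of CYP1B1 without J82 control 1 (-0.43), J82 control 3 (-0.31) or RT112 control 3 (-0.25).

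The other genes of the pathway were taken from 8 lists, of which 119 genes were measured. In J82 12 of them rose and 8 fell, where 5.4% of all genes rose and 2.78% fell, with a median of 0.035. In RT112, the contrast that chose the set, 11 were higher and 8 lower past the threshold, where 4.95% and 3.53% of all genes were, with a median of 0.040. The counts of each list below stand beside these same shares. The lists were drawn up with earlier results of these data known. Of the 20 calls in J82, 12 held without each single array, and of the 19 in RT112 9 did. Without RT112 palbociclib replicate 1, when calls over all genes were more too (8.09% higher and 5.11% lower), the RT112 counts were 4 higher and 1 lower of the 15 bHLH-PAS genes, 4 and 2 of the 22 P450 genes, 3 and 0 of the 17 aldehyde dehydrogenases, 3 and 2 of the 20 targets, 0 and 1 of the 14 conjugation enzymes and 4 and 3 of the 16 ADP-ribosyltransferases.

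Among 20 measured genes reported elsewhere as receptor targets, 4 rose and 0 fell in J82, and 2 were higher and 2 lower in RT112, with medians of 0.081 and 0.024. In J82 the amino acid transporter gene SLC7A5 rose by 1.77 ± 0.24 (adjusted p = 0.000484) and STC2, a secreted stress glycoprotein, by 1.25 ± 0.18 (adjusted p = 0.000743). PTGS2, the inducible cyclooxygenase, stood at 1.52 ± 0.21 in RT112 and rose in J82 by 0.73 ± 0.21 (adjusted p = 0.0447), a J82 call lost without any J82 array (0.65 to 0.79) or any RT112 control (0.73). In RT112 the scaffold gene NEDD9 stood at 0.69 ± 0.12. Without RT112 palbociclib replicate 1 the RT112 values were 1.85 for PTGS2, 0.78 for NEDD9, -0.91 for ABCG2 and -0.93 for CYP2S1. The drug efflux pump gene ABCG2 was lower there (-0.86 ± 0.15), as was CYP2S1 (-0.79 ± 0.18), a P450 reported as a target. CYP2S1 averaged 7.06 in RT112 under palbociclib and 7.85 in RT112 controls. In J82 it averaged 5.35 under palbociclib and 5.33 in controls, and all of these means lie inside the background span. Its RT112 call was lost without control 1, control 2 or palbociclib 3 (-0.68, -0.68 and -0.66).

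The widely used receptor and NRF2 target NQO1 stood at -0.00 ± 0.20 in RT112 and 0.00 ± 0.20 in J82, with means of 14.8 in both RT112 groups and 14.9 in both J82 groups. CYP1A2, which lies beside CYP1A1 and is mostly a liver gene, stood at -0.12 ± 0.12 in RT112 and -0.14 ± 0.12 in J82, and its group means lay between 4.34 and 4.54, inside the background span. Without RT112 palbociclib replicate 1 the RT112 values were 0.08 for NQO1 and -0.24 for CYP1A2, neither past the threshold.

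Of 5 measured genes of the cytosolic receptor complex and its turnover, 2 fell and 0 rose in J82, and 1 was lower in RT112. HSP90AA1, the inducible HSP90 chaperone, fell in J82 by 0.80 ± 0.18 (adjusted p = 0.0148) and stood at -0.79 ± 0.18 in RT112 (-0.69 without palbociclib replicate 1). The ubiquitin ligase scaffold gene CUL4B fell in J82 by 0.82 ± 0.19 (adjusted p = 0.0145). The J82 call of HSP90AA1 was lost without control 1 (-0.76) or palbociclib 1 (-0.65), its RT112 call without any one control (-0.77 to -0.81), and that of CUL4B without J82 control 2 (-0.79) or control 3 (-0.69). The median over this list was -0.54 in J82 and -0.23 in RT112.

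Of 15 bHLH-PAS relatives and coactivators, 1 rose and 3 fell in J82 and 2 were higher and 1 lower in RT112. Besides EPAS1, the neuronal factor gene NPAS3 fell in J82 by 1.50 ± 0.12 (adjusted p = 9.43e-06) and ARNT2, a close relative of ARNT, by 0.89 ± 0.11 (adjusted p = 0.000199). In RT112 the circadian factor gene BMAL1 stood at 1.68 ± 0.19 and NPAS2, another bHLH-PAS gene, at 0.54 ± 0.11. BMAL2 stood at -0.53 ± 0.13, a call lost without control 1, control 3, palbociclib 2 or palbociclib 3 (-0.51, -0.46, -0.49 and -0.51). With RT112 palbociclib replicate 1 left out they stood at 1.94 for BMAL1, 0.61 for NPAS2 and -0.57 for BMAL2.

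Tryptophan catabolism makes kynurenine, a weak receptor ligand. Of its 10 measured genes 1 rose in J82, IDO1, by 0.67 ± 0.16 (adjusted p = 0.0193), and 1 was higher in RT112, KYNU, the kynureninase gene, at 1.25 ± 0.27 (1.66 without palbociclib replicate 1). IDO1 averaged 6.09 in J82 under palbociclib and 5.42 in J82 controls, inside the background span, and its call was lost without control 1, palbociclib 2 or palbociclib 3 (0.53, 0.65 and 0.52). KYNU averaged 10.4 in RT112 under palbociclib and 9.11 in RT112 controls, and its call was lost without control 2, palbociclib 2 or palbociclib 3 (1.07, 1.07 and 1.02).

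Of 22 other P450 genes and electron donors 1 fell in J82, CYP2J2, an arachidonic acid epoxygenase (-1.07 ± 0.22, adjusted p = 0.00799), and 3 were higher and 1 lower in RT112. The sterol demethylase gene CYP51A1 stood at 1.90 ± 0.31 there, CYP4F11 at 0.92 ± 0.19 and the vitamin D hydroxylase gene CYP24A1 at -0.61 ± 0.13, a call lost without control 1, palbociclib 2 or palbociclib 3 (-0.48, -0.54 and -0.56). Leaving out RT112 palbociclib replicate 1 gave 2.02 for CYP51A1, 1.10 for CYP4F11 and -0.72 for CYP24A1. Of 14 conjugation and hydrolysis enzymes 1 rose in J82, GSTM2 (0.33 ± 0.09, adjusted p = 0.0455), a call lost without any J82 array but palbociclib 2 (0.27 to 0.35) and without any RT112 array but palbociclib 1 (0.33), and 0 passed in RT112.

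Of 17 other aldehyde dehydrogenases 3 rose and 2 fell in J82, and 2 were higher and 0 lower in RT112. ALDH6A1 rose in J82 by 0.80 ± 0.15 (adjusted p = 0.00509) and stood at 0.65 ± 0.15 in RT112, and ALDH2, which clears acetaldehyde, rose in J82 by 0.69 ± 0.12 (adjusted p = 0.00257). The retinaldehyde dehydrogenase gene ALDH1A3 fell in J82 by 0.90 ± 0.18 (adjusted p = 0.00737) and ALDH1L1 by 0.45 ± 0.11 (adjusted p = 0.0208), the second not without control 1, control 2 or palbociclib 1 (-0.40, -0.47 and -0.40). ALDH3B1 stood at 0.49 ± 0.13 in RT112 and rose in J82 by 0.62 ± 0.13 (adjusted p = 0.00863). Leaving out RT112 palbociclib replicate 1 gave RT112 values of 0.66 for ALDH6A1 and 0.47 for ALDH3B1. The RT112 calls were lost for ALDH6A1 without control 2, control 3 or palbociclib 3 (0.64, 0.62 and 0.61) and for ALDH3B1 without any RT112 control or palbociclib 3 (0.44 to 0.55).

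Of 16 relatives of TIPARP among the ADP-ribosyltransferases 2 rose and 0 fell in J82, and 1 was higher and 3 lower in RT112. PARP6 rose in J82 by 1.25 ± 0.17 (adjusted p = 0.00053) and PARP8 by 0.49 ± 0.12 (adjusted p = 0.0243), the second not without any J82 array but palbociclib 1 (0.39 to 0.52). In RT112 the DNA damage sensors PARP2 and PARP1 stood at -1.69 ± 0.15 and -1.29 ± 0.17, and the tankyrase gene TNKS2 at 0.78 ± 0.22, a call lost without J82 control 2 (0.78) or any RT112 array but palbociclib 1 (0.62 to 0.83). Leaving out RT112 palbociclib replicate 1 gave -1.61 for PARP2, -1.17 for PARP1 and 0.93 for TNKS2.

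**Figure D3:**
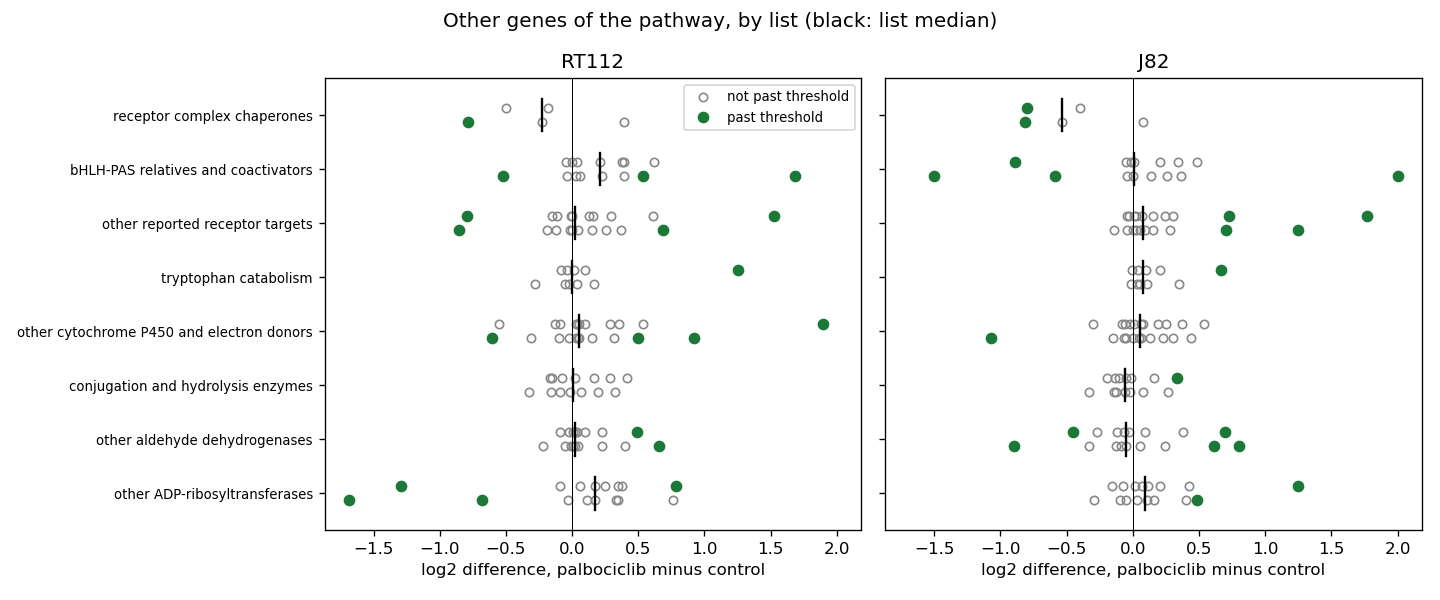
Log2 difference, palbociclib minus control, of the other genes of the pathway in RT112 (left) and J82 (right), 1 point a gene by list, with filled points past the adjusted p threshold of 0.05 and a black bar at the list median. Most points lie near 0 in both lines, and the list medians lie between -0.54 and 0.21.

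The genes whose pattern was most like that of CYP1A1 were ranked by Pearson's r over the 12 arrays after each line's mean was subtracted, as a description over arrays that share a line and a treatment. They were the mevalonate enzyme gene MVD (r = 0.981), the adaptor gene FYB1 (0.98), DCAF5 (0.979), the lanosterol synthase gene LSS (0.977) and LINC00622 (0.972). All 5 were higher in RT112 under palbociclib without overlap, by 1.93 ± 0.17 for MVD, 2.15 ± 0.20 for LSS, 1.38 ± 0.15 for FYB1, 1.05 ± 0.15 for DCAF5 and 1.18 ± 0.11 for LINC00622. Their differences in J82 lay between -0.04 and 0.20, and their J82 arrays overlapped. All group means of LINC00622 and the J82 means of FYB1 lie inside the background span. So do the MVD and LSS means of RT112 controls and of both J82 groups. The ranking favours genes with this pattern, so nothing is read from the separation in RT112 or the overlap in J82. Without RT112 palbociclib replicate 1 the RT112 differences were 2.02 for MVD, 2.41 for LSS, 1.53 for FYB1, 1.12 for DCAF5 and 1.28 for LINC00622. The order by r then changed: over 11 arrays FYB1 ranked 1 and LSS 3, while MVD ranked 6, DCAF5 10 and LINC00622 15. Within the set the same measure against CYP1A1 was 0.904 for CYP1B1, 0.875 for TIPARP, 0.858 for ALDH3A1, 0.769 for ARNT and 0.532 for AHR. Without that array it was 0.897, 0.881, 0.877, 0.781 and 0.495 in the same order of genes. They then ranked 253, 337, 357, 956 and 3430 over all genes, so many genes outside the set were more like CYP1A1.

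**Figure D4:**
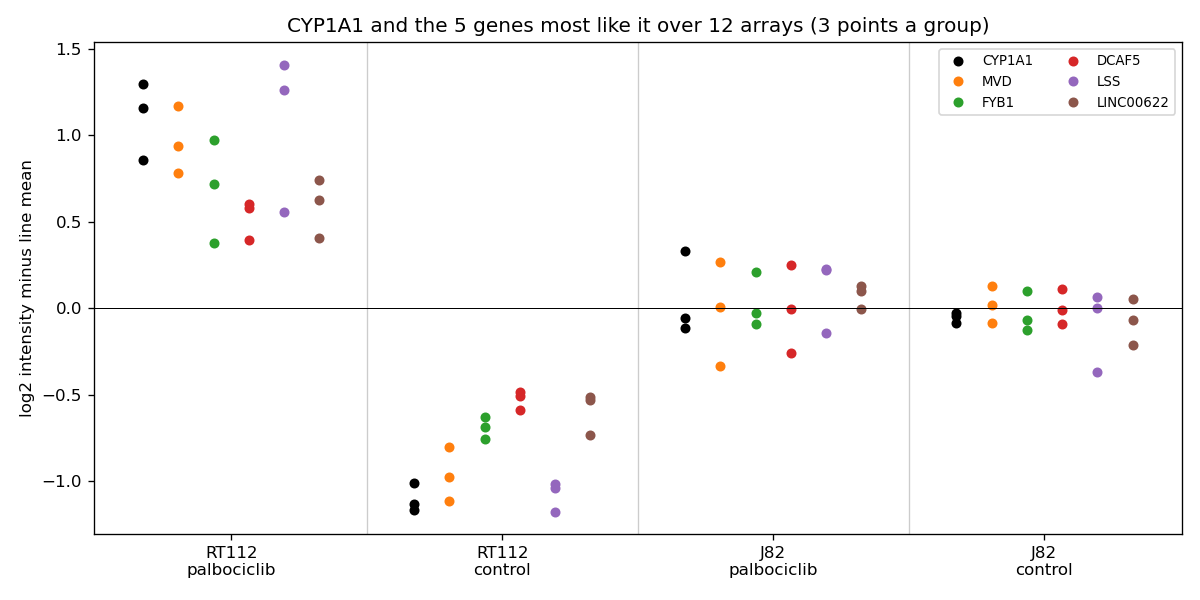
Log2 intensity minus the mean of its line for CYP1A1 (black) and the 5 genes most like it, 3 points a group, in RT112 palbociclib, RT112 control, J82 palbociclib and J82 control from left to right. All 6 genes separate the RT112 palbociclib arrays from the RT112 controls and overlap between the J82 groups. The ranking by likeness to CYP1A1 favours genes with this pattern.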

How the data were processed

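Per the labels' protocols, total RNA was converted to biotinylated DNA for Affymetrix whole-transcript arrays. The authors deposited log2 intensities for 18 arrays and 70523 rows. The submitters' processing notes name RMA and Affymetrix Expression Console, with no build. No 2 arrays were identical. Rows took their symbols from the platform annotation, and for the 479 symbols on several rows the brightest row by mean was used. Promoters came from RefSeq.

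The 12 arrays of RT112 and J82 entered 1 limma model (version 3.58.1, R 4.3.3) with a mean for each labelled group and moderated variances that follow intensity. Benjamini-Hochberg adjustment ran over 22465 genes, with a threshold of 0.05. The SE rests on 1 spread per gene over both lines. The model was tested on simulated data, and the number of arrays limits its precision.

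The members and lists were chosen with earlier results of these data known. The text names all members, per list and line at most 2 genes up and 2 down by size, and the 5 genes most like CYP1A1. HIF1A, NQO1 and CYP1A2 were added after their values were seen. 10 alternatives and the omission of each array were tried. The values of list genes, markers and CYP1A1-like genes without RT112 palbociclib replicate 1 were added after seeing the data.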

Additional observations from a re-analysis of the deposited data

How the results depend on the processing

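AHR in J82 passed under every alternative tried, from 0.81 to 1.13 with adjusted p between 0.00139 and 0.0377, except where a log2 difference of at least 1 was required. That rule left 0 of the 6 genes in J82, 1 in RT112 and 2 between the controls, and 535, 595 and 2593 of all genes, fewer by its construction. With arrays shifted to one median, 3 of the 6 genes passed in RT112, and AHR was not among them. AHR did not pass in RT112 with each line fitted alone or with the replicate block either. Array weights, which give RT112 palbociclib replicate 1 little weight, gave 5780 genes in RT112 against 1905, and each line fitted alone gave 1045 in J82 against 1837; the cause was not tested. Calls split into 1213 higher and 624 lower in J82, 830 and 695 after the median shift and 1226 and 1075 after quantile normalization, and in RT112 into 1112 and 793, 632 and 794, and 1450 and 1172. Leaving out 1 array gave 1147 (without J82 control replicate 3) to 2416 genes (without RT112 palbociclib replicate 1) in J82 and 1131 (without RT112 control replicate 2) to 2965 (without RT112 palbociclib replicate 1) in RT112, and 3 to 6 of the 6 genes in RT112 and 2 to 4 between the controls. Over the same omissions the J82 differences that did not pass lay between -0.035 and 0.19 for CYP1A1, -8.25e-05 and 0.14 for CYP1B1, and -0.16 and 0.044 for ALDH3A1. With the replicate block, AHR in J82 kept 0.99 (limma adjusted p = 0.00774). Of the 6 genes 4 passed in RT112 and 3 between the controls, and 1900, 1867 and 6125 of all genes. After group means were subtracted, same-numbered J82 arrays correlated at 0.17, 0.19 and 0.08. The highest r with another number was -0.06, -0.01 and -0.04 there. In RT112 the same-numbered arrays gave 0.09, -0.19 and 0.17, against 0.24, 0.32 and 0.01. Whether the numbers pair the samples cannot be told from these values. A filter on bright genes dropped CYP1A1 and CYP1B1 and gave no count of the 6 genes, and the controls have no value with each line alone.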

Other observations

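Antisense genes beside 2 of the members have rows of their own and were looked at after the row names were seen. CYP1B1-AS1 stood at -0.10 ± 0.14 in RT112 and -0.07 ± 0.14 in J82, and TIPARP-AS1 at 0.24 ± 0.13 in RT112 and 0.34 ± 0.13 in J82 (limma adjusted p = 0.127 in J82), all inside the background span.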
